A study of Mus musculus with 8 samples.

Results

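The E2F and retinoblastoma family was followed in whole retinas of mouse pups by bulk RNA-seq. It comprised the 10 genes *E2f1* to *E2f8*, *Rb1* and *Rbl1*, taken by gene symbol from the 54532 genes deposited. The 4 mutant samples came from *Six3-Cre*+; *Mettl3* floxed/floxed pups, called *Mettl3*-CKO, in which *Mettl3*, the core of the enzyme complex that writes m6A on RNA, is deleted in retinal progenitor cells (RPCs). The 4 comparison samples are labelled control, and their genotype is not described further in the sources used here. The age is postnatal day 7 in the labels and day 6 in the study's methods. *Six3-Cre* acts in RPCs, so cells of other origin, such as vessels and microglia, are not targeted, and the study described the deletion as efficient in the central retina. Whether a sample pooled several pups is not given in the sources used here.

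E2F proteins are the transcription factors that switch on the genes of DNA replication as a cell passes from G1 into S phase. The pocket proteins of the retinoblastoma family bind E2Fs and hold these genes silent until cyclin-dependent kinases phosphorylate them. E2F1, E2F2 and E2F3 are mainly activators, E2F4 and E2F5 act mainly as repressors together with pocket proteins, E2F6 represses without binding pocket proteins, and E2F7 and E2F8 are atypical repressors that are themselves E2F targets. In the retina the family is best known through *Rb1*, whose human counterpart is lost in retinoblastoma, and through its control of the exit of RPCs from the cell cycle.

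All 10 genes passed the filter on low counts, with between 213 and 1878 counts in a sample, and 0 of the 10 were called changed in *Mettl3*-CKO retinas. A gene was called when its adjusted p was under 0.05 in the quasi-likelihood test of edgeR, adjusted by the Benjamini-Hochberg method over all 17998 genes tested, and 10.5% of these genes were called. DESeq2 and limma voom also called 0 of the 10. At an unadjusted p under 0.05, each of the 3 tools passed 3 of the 10, namely *E2f3*, *E2f6* and *Rb1*, where edgeR passed 24.6% of all genes. The log2 fold changes of *Mettl3*-CKO against control were positive for 7 members and negative for 3, lay between -0.26 and 0.29, and had a median of 0.19 against -0.012 over all genes tested. Without control replicate 1 the median of the members was -0.030, and without *Mettl3*-CKO replicate 2 it was 0.070. In bulk retina a change in the number of cells that express a gene and a change in RNA per cell cannot be told apart.

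Total counts ranged from 16227095 to 20281517 per sample. Values below are CPM, counts scaled to a common library size, on library sizes scaled by edgeR's TMM method unless FPKM, which also divides by gene length, is named. *Mettl3* was at a mean of 24.1 CPM in *Mettl3*-CKO and 31.2 CPM in control samples, a log2 fold change of -0.38 with an adjusted p of 0.0602 in edgeR's quasi-likelihood test, so the label check was not past the threshold. Its counts cover the whole gene, including exons outside a deleted part. Control replicate 1 stood apart from the other controls for many of the family's genes, and control replicate 4 carried lens RNA, with 3016 CPM summed over lens markers against 7.5 to 65.6 CPM elsewhere. The counts of calls in each gene and marker list were also taken without each of these samples, an addition made after the data were seen. They are given where they moved, and counts without both samples are given for some lists only.

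The promoters of 5 members are shown first because they hold sequence letters tied to E2F or MuvB regulation, and they were chosen after the search. RefSeq windows of 250 bases before and 50 bases after a transcription start (GRCm38.p6) were matched by symbol for 7 of the 10 members (9 windows, since some genes have more than one), and *E2f4*, *E2f5* and *Rb1* had none. The letters TTTNNCGC, a common form of the E2F site, and TTTGAA, the cell cycle homology element bound by the MuvB complex, were searched on both strands. TTTNNCGC was present in 5.16% and TTTGAA in 17.9% of the 32817 promoter windows of this length. Of the 7 members with a window, 4 had TTTNNCGC in at least one window and 3 had TTTGAA. Among the 5 whose window contained the gene start given in the deposited table, the numbers were 3 and 2. The percentages are per window, whereas a member with more than one window was counted once. The TTTGAA of *E2f2* was in another window, not printed, whose RefSeq start lies 8388 bases from the deposited gene start. Capitals mark either motif as read on the printed strand, the strand of the gene.
*E2f2*, chr4:136172024-136172323, plus strand: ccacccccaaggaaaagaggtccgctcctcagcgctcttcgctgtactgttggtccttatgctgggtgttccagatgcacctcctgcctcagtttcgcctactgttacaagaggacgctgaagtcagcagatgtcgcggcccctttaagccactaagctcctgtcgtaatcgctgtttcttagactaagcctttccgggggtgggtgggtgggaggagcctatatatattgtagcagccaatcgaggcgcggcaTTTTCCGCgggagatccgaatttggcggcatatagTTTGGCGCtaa
*E2f3*, chr13:29986014-29986313, minus strand: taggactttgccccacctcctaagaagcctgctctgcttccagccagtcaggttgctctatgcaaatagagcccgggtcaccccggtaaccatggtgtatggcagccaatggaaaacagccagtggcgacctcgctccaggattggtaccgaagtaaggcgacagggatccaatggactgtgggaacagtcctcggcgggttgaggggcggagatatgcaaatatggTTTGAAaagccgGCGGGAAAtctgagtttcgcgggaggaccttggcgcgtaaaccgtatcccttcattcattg
*E2f7*, chr10:110745189-110745488, plus strand: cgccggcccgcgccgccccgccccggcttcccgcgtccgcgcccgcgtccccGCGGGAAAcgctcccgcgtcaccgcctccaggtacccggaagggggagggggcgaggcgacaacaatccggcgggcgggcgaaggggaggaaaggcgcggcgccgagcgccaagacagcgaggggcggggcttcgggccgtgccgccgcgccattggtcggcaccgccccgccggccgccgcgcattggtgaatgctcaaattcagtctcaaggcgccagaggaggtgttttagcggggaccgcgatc
*E2f8*, chr7:48881547-48881846, minus strand: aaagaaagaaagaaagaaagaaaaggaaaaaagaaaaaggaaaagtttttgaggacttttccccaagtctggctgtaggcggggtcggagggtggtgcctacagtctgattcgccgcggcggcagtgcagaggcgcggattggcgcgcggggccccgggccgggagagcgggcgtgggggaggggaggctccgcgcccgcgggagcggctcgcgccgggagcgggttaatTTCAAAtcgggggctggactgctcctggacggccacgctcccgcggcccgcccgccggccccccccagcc
*Rbl1*, chr2:157204485-157204784, minus strand: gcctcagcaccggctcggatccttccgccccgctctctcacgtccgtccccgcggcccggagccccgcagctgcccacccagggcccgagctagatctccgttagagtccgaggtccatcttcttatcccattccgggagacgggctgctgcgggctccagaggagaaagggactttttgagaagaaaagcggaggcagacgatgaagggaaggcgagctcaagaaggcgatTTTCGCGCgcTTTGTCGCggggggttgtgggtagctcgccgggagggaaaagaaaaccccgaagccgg
*Rbl1* held 2 copies of the E2F letters, beginning 18 and 8 bases before the start, and *E2f2* held 2 copies just after its RefSeq start, which lies 120 bases from the deposited gene start. In *E2f3* the E2F letters (on the opposite strand) and TTTGAA lay side by side, whereas in *E2f7* the single E2F match lay 198 bases upstream and in *E2f8* only TTTGAA was found. The window of *E2f6* held neither motif, nor did that of *E2f1*, whose RefSeq start lies 466 bases inside the deposited gene. These matches describe letters in a window and no binding was measured.

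Among the activators, *E2f1*, on chromosome 2 from 154559407 to 154569892 (GRCm38, minus strand), was at 88.7, 109, 81.1 and 69.6 CPM in *Mettl3*-CKO replicates 1 to 4. In control replicates 1 to 4 it was at 41.4, 76.97, 87.1 and 80.0 CPM. Replicate 1 of the controls was far below the other 7 samples, and the groups otherwise overlapped. The mutant mean was 87.1 ± 16.5 CPM and the control mean 71.4 ± 20.4 CPM (SD, n = 4 each), which gave a log2 fold change of 0.29 (95% interval -0.14 to 0.72, adjusted p = 0.416 in edgeR's quasi-likelihood test). Without control replicate 1 the log2 fold change was 0.10.

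*E2f2*, another activator of S phase genes, was at 27.0, 33.3, 24.8 and 29.2 CPM in the mutants and 16.2, 22.8, 33.5 and 32.4 CPM in the controls. The controls spread over a 2.07-fold range and enclosed every mutant value. Its log2 fold change was 0.12 (95% interval -0.29 to 0.54, adjusted p = 0.753 in edgeR) and turned to -0.052 without control replicate 1.

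*E2f3*, the third activator, was at 43.9, 42.2, 37.0 and 40.9 CPM in the mutants against 27.0, 34.0, 35.4 and 40.1 CPM in the controls. Each mutant sample was above the 3 lowest controls, and only control replicate 4 reached into the mutant range. The log2 fold change was 0.27 (95% interval 0.02 to 0.52), with an unadjusted p of 0.0386 and an adjusted p of 0.174 in edgeR's quasi-likelihood test, and it was 0.17 without control replicate 1.

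*E2f4* and *E2f5* encode the E2Fs that pair with p107 and p130 in resting cells. *E2f4*, on chromosome 8 from 105297663 to 105305370, was at 47.7, 57.6, 43.0 and 48.5 CPM in the mutants and 43.1, 54.8, 60.1 and 53.0 CPM in the controls. *E2f5*, on chromosome 3, was at 23.0, 24.9, 24.4 and 24.4 CPM in the mutants and 30.2, 23.9, 23.5 and 25.6 CPM in the controls. The groups of both genes overlapped widely. Their log2 fold changes were -0.10 (95% interval -0.35 to 0.15) and -0.09 (95% interval -0.31 to 0.12). *E2f5* was the only member whose highest value of the 8 samples was in control replicate 1.

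*E2f6*, the repressor that works with a variant Polycomb complex, was the only member whose groups did not overlap, a pattern found in 17.4% of all genes tested. It was at 48.6, 49.9, 43.5 and 44.1 CPM in the mutants, and at 40.1, 43.2, 40.6 and 36.2 CPM in the controls. The highest control and the lowest mutant were nearly level. The means were 46.5 ± 3.20 and 40.03 ± 2.90 CPM (SD, n = 4 each), a log2 fold change of 0.22 (95% interval 0.02 to 0.41, unadjusted p = 0.0299, adjusted p = 0.149 in edgeR's quasi-likelihood test), and it lay between 0.17 and 0.26 with any 1 sample left out.

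The atypical repressors varied most among the controls. *E2f7* was at 27.5, 36.5, 30.4 and 28.1 CPM in the mutants and at 11.4, 24.3, 38.7 and 33.7 CPM in the controls. *E2f8* was at 27.3, 44.7, 34.5 and 32.2 CPM in the mutants and at 13.1, 32.8, 39.9 and 35.4 CPM in the controls. In both genes control replicate 1 was below all other samples and the other 3 controls lay within or near the mutant range. The log2 fold changes were 0.18 (95% interval -0.40 to 0.76) and 0.20 (95% interval -0.37 to 0.76), the widest intervals of the family, and they turned to -0.075 and -0.057 without control replicate 1. An antisense transcript, *Gm2788*, shares 610 exonic bases with *E2f8* in the GENCODE vM21 annotation, and the strand setting of the counting is not given in the sources used here.

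*Rb1*, the founding pocket protein, had the largest negative log2 fold change of the family. It was at 59.1, 79.1, 65.8 and 60.8 CPM in the mutants and at 75.4, 77.5, 81.4 and 82.3 CPM in the controls. Mutant replicates 1, 3 and 4 lay below every control, and replicate 2 lay among them. The means were 66.2 ± 9.07 and 79.1 ± 3.24 CPM (SD, n = 4 each), a log2 fold change of -0.26 (95% interval -0.48 to -0.04, unadjusted p = 0.0238, adjusted p = 0.130 in edgeR's quasi-likelihood test). Without *Mettl3*-CKO replicate 2 it was -0.35 with an adjusted p of 0.0433 in edgeR, the single fit among those run in which a member was called. Exons of *Rcbtb2* and *Lpar6* on the opposite strand overlap 488 and 408 bases of the 6015 bases of *Rb1* exon.

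*Rbl1*, which encodes the pocket protein p107 and is a textbook E2F target, was at 55.4, 65.8, 49.5 and 48.5 CPM in the mutants and at 38.6, 56.5, 47.8 and 48.2 CPM in the controls. The ranges overlapped, with control replicate 1 lowest and mutant replicate 2 highest. Its log2 fold change of 0.20 (95% interval -0.08 to 0.47, adjusted p = 0.377 in edgeR) was 0.11 without control replicate 1.

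**Figure D1:**
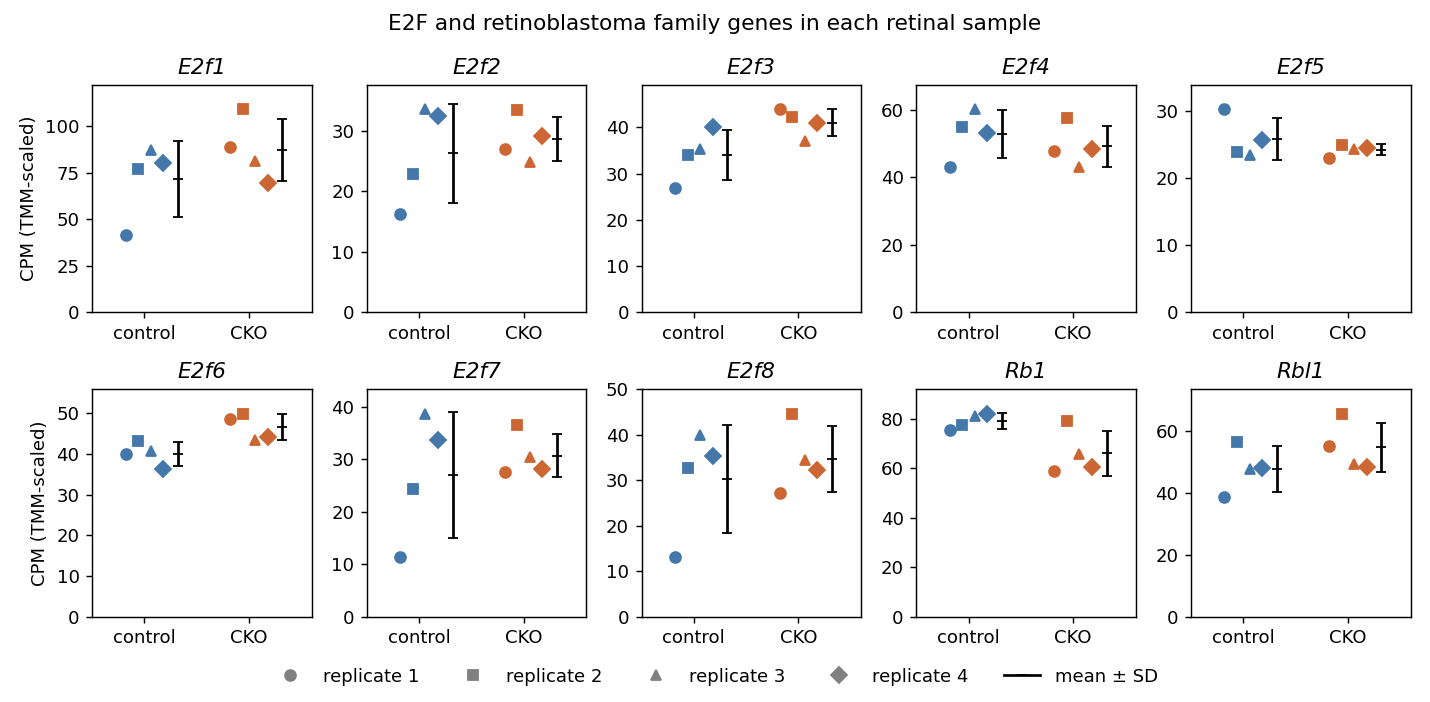
CPM on TMM-scaled library sizes (vertical axis, from 0) for each of the 10 family genes in the 4 control (blue) and 4 Mettl3-CKO (orange) retinal samples, with a marker shape for each replicate number and the mean ± SD in black. Control replicate 1 (circle) is the lowest sample in 6 of the 10 panels.

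**Figure D2:**
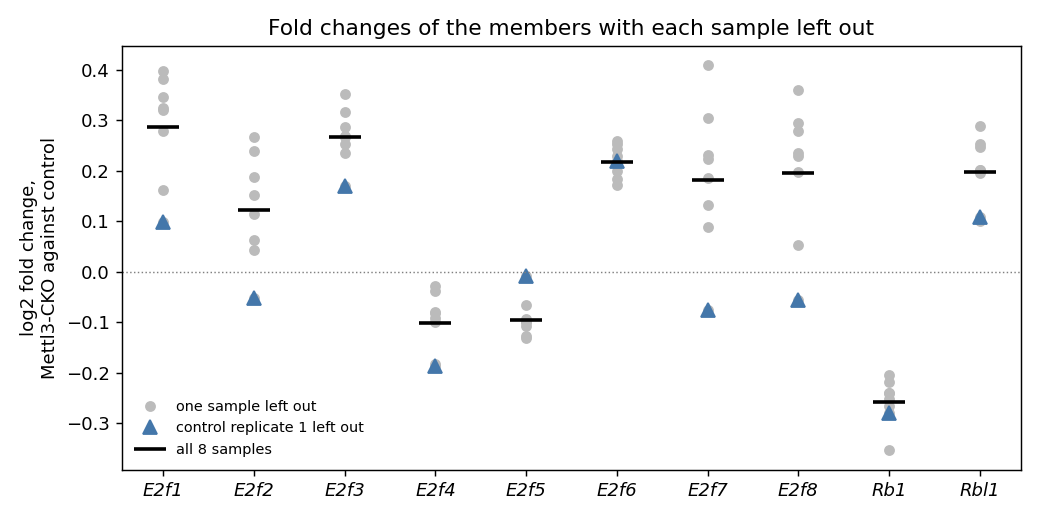
log2 fold changes of Mettl3-CKO against control (vertical axis) for each member with all 8 samples (black bar), with each single sample left out (grey) and without control replicate 1 (blue triangle). The values of E2f2, E2f7 and E2f8 fall below 0 without that control, at -0.052, -0.075 and -0.057.

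Control replicate 1 was the lowest of the 8 samples for 6 of the 10 members (*E2f1*, *E2f2*, *E2f3*, *E2f7*, *E2f8* and *Rbl1*), and for 24.1% of all genes tested. Against the mean of the other controls it was lower by a log2 difference of -1.46 for *E2f7*, -1.45 for *E2f8*, -0.97 for *E2f1* and -0.85 for *E2f2*. It was also the lowest sample for 25 of 32 S phase genes that E2Fs drive. The coefficient of variation was larger in the controls than in the mutants for 9 of the 10 members and for 63.3% of all genes, and without this sample for 5 of the 10 and 37.8%. The summed level of 8 RPC markers was 803 CPM in this sample and between 898 and 997 CPM in the other 7, and that of 10 rod markers was 4306 CPM against 1486 to 3312 CPM. It was also highest in the summed level of Müller glial markers, at 2501 CPM against 1977 to 2226 CPM, and of microglial markers, at 127 CPM against 39.7 to 100.6 CPM. The Müller glial markers did not all go this way. *Dkk3* and *Kcnj10* were lowest in this sample, at 660 and 11.9 CPM. *Glul* was at 417 CPM in this sample, below the mutants at 485 to 584 CPM. The median log2 level of the endothelial markers against their control means was 0.89 in this sample and between -1.39 and -0.067 in the other 7. The endothelial marker *Kdr* went the other way and was lowest in this sample, at 481 CPM. The part of these markers in the low values was not tested.

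Per length, the order of the levels was the same in both groups. In controls *E2f1* led at 22.6 ± 6.48 FPKM (SD, n = 4) and *E2f4* followed at 21.5 ± 2.90 FPKM. *E2f5* was at 14.5, *Rb1* at 13.2, *Rbl1* at 7.97, *E2f6* at 7.07, *E2f3* at 6.28, *E2f8* at 5.56, *E2f2* at 5.37 and *E2f7* at 2.999 FPKM. Neighbours in this order overlapped in their ranges over the 4 controls, except that *E2f4* lay above *E2f5* and *Rb1* above *Rbl1*. In the mutants the separated neighbours were *E2f4* over *E2f5* and *E2f2* over *E2f7*. The family's FPKM summed to between 104 and 132 in mutants, to 85.7 in control replicate 1 and to between 109.8 and 119 in the other controls.

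**Figure D3:**
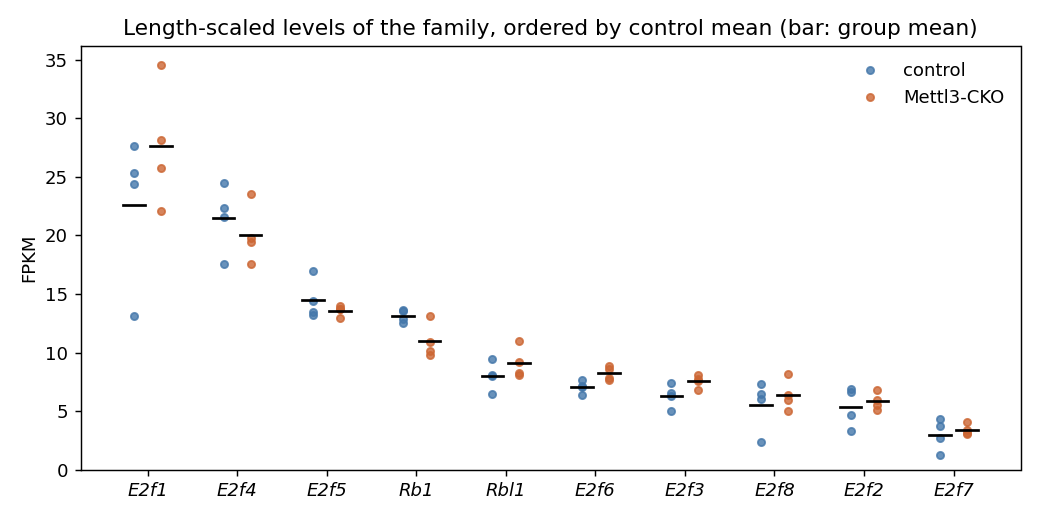
FPKM (vertical axis, from 0) of the 10 members in each control (blue) and Mettl3-CKO (orange) sample, ordered by the control mean, with bars at the group means. E2f1 and E2f4 stand highest, at 22.6 and 21.5 FPKM in controls, and E2f7 lowest, at 2.999 FPKM.

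Over the 8 samples the atypical E2Fs moved with each other, with a Pearson r of log2 CPM of 0.966 between *E2f7* and *E2f8*. *E2f7* also moved with the activators *E2f2* (r of 0.953) and *E2f1* (r of 0.919). Without control replicate 1 these r values were, in the same order, 0.782, 0.874 and 0.575. The 8 points share 2 groups and one low control, so the values are a description. Outside the family, the genes with the highest r over the 8 samples were *Ephb1* (0.991) and *Foxm1* (0.983) for *E2f1*, *Cux1* (0.977) for *E2f2*, *Slit1* (0.987) for *E2f3*, *Dab2ip* (0.988) for *E2f4* and *Rmnd1* (0.975) for *E2f5*. For the others they were *Carnmt1* (0.987) for *E2f6*, *Gga2* (0.994) for *E2f7*, *Gm18310* (0.988) for *E2f8*, *Ppp2r5a* (0.975) for *Rb1* and *Tacc3* (0.974) for *Rbl1*. These were the highest values among all tested genes outside the family.

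The genes around the family were described from lists chosen with earlier results known, and their counts are read beside the 6.49% of all genes called higher and the 4.05% called lower in *Mettl3*-CKO retinas. The obligate dimerization partners *Tfdp1* and *Tfdp2* were not called, with log2 fold changes of 0.17 and 0.13. Among 8 subunits and partners of the DREAM and MuvB complex, 0 were called higher and 1 lower, *Lin37* (log2 fold change -0.43, adjusted p = 0.0491 in edgeR), which left 0 called without control replicate 4. The third pocket protein gene, *Rbl2*, had a log2 fold change of 0.027, and *Mybl2* and *Foxm1*, which take over the complex in dividing cells, had 0.45 and 0.39 without passing the test.

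Of 13 kinases, cyclins and inhibitors that set the phosphorylation of pocket proteins, 3 were called higher and 2 lower. *Cdkn1a*, which encodes the inhibitor p21, rose from 30.9 ± 2.84 to 77.8 ± 16.0 CPM (SD, n = 4 each), a log2 fold change of 1.33 (adjusted p = 0.000227 in edgeR's quasi-likelihood test). *Ccne1*, the cyclin that drives entry into S phase, and *Cdkn2d*, an inhibitor of CDK4 and CDK6, rose by 0.56 and 0.46. The inhibitor genes *Cdkn1b* (p27) and *Cdkn1c* (p57), named after their values were seen, fell by 0.38 and 0.39, with adjusted p of 0.0163 and 0.0197 in edgeR. Without control replicate 4, 1 gene of this list was called higher and 1 lower, and without control replicate 1 the counts were again 3 and 2.

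Many E2F target genes were called higher in *Mettl3*-CKO retinas. Of the 10 family genes 0 were, beside 6.49% of all genes tested, and the difference between targets and members was not tested. Of 32 S phase targets of the E2Fs, 15 were called higher and 0 lower, all 32 had a positive log2 fold change, and the median was 0.40. *Tk1*, thymidine kinase, was at 108, 87.3, 95.8 and 77.5 CPM in the mutants and 30.0, 46.4, 53.5 and 48.0 CPM in the controls, all mutants above all controls, with a log2 fold change of 1.05 (adjusted p = 0.00196 in edgeR). *Fen1*, a flap endonuclease of lagging strand synthesis, rose by 0.93 and *Chek1*, the replication checkpoint kinase, by 0.76. The number called depended on single samples, and it was 2, 5 and 7 without *Mettl3*-CKO replicates 1, 2 and 3, 9 without control replicate 2, 9 without control replicate 4, 19 without control replicate 1, 19 without *Mettl3*-CKO replicate 4, and 6 without control replicates 1 and 4 together. The median was 0.35 without control replicate 1 and 0.31 without both.

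Among 22 mitotic targets of the DREAM complex, 6 were called higher and 0 lower, 20 had a positive log2 fold change and the median was 0.33. *Mki67*, which marks dividing cells, rose from 459 ± 46.5 to 905 ± 150.4 CPM (SD, n = 4 each), a log2 fold change of 0.98 (adjusted p = 0.000701 in edgeR). *Cenpf*, of the kinetochore, rose by 0.96 and *Birc5*, survivin, by 0.62. Without *Mettl3*-CKO replicate 4 the number called was 10, without control replicate 1 it was 7, and without control replicate 4 it was 5. Without both of these controls it was also 5.

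Of 10 partners of E2F6 in the variant Polycomb complex 0 were called (1 higher without control replicate 1), and the most abundant, *Cbx3*, had a log2 fold change of 0.092. Of 5 germline genes that E2F6 represses, 2 passed the filter on low counts, and *Stag3* was called lower (log2 fold change -0.40, adjusted p = 0.0359 in edgeR), although 0 of these were called without control replicate 4. Of 10 apoptosis genes that E2Fs can drive, 0 were called at an adjusted p under 0.05 and 2 passed an unadjusted p under 0.05, with a median log2 fold change of -0.078.

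**Figure D4:**
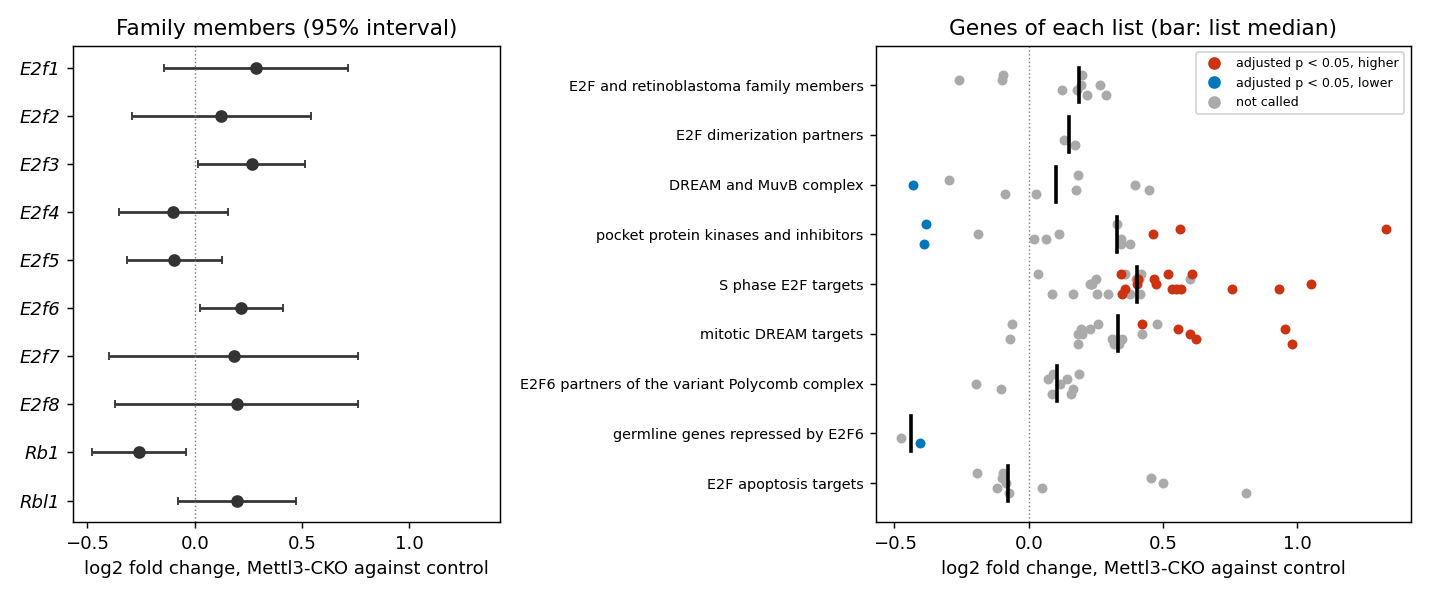
log2 fold changes of Mettl3-CKO against control (horizontal axis) for the 10 members with 95% intervals (left) and for the tested genes of each list (right, one point per gene, red or blue where called higher or lower, black bar at the list median). All members are grey, and 15 of 32 S phase targets and 6 of 22 mitotic targets are red.

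Markers of several cell types moved with the groups. *Nrl*, the rod transcription factor gene, was at a mean of 443 CPM in mutants and 765 CPM in controls, a log2 fold change of -0.79 (adjusted p = 0.00861 in edgeR). Of 10 rod markers 7 were called lower (median log2 fold change -0.77), and their summed level was 1486 to 2700 CPM in mutants and 2834 to 4306 CPM in controls. The count of rod markers was 7 without control replicate 1 and 4 without control replicate 4. Of 9 endothelial markers tested 7 were called lower, 6 without control replicate 1, 6 without control replicate 4 and 4 without both. Their summed levels overlapped, at 542 to 640 CPM in mutants and 563 to 659 CPM in controls. *Kdr* made up most of each sum, at a mean of 558 CPM in mutants and 549 CPM in controls (log2 fold change 0.023). The other 8 endothelial markers tested had negative log2 fold changes. Of 7 lens markers tested 4 were called lower, 6 without control replicate 1 and 0 without control replicate 4. Of 8 RPC markers 1 was called higher and 1 lower, with sums of 903 to 997 CPM in mutants and 803 to 989 CPM in controls. *Hes6* was the largest part of each RPC sum, at a mean of 455 CPM in mutants and 434 CPM in controls (log2 fold change 0.068). *Fgf15* was called higher, at means of 30.3 and 14.3 CPM (log2 fold change 1.08, adjusted p = 0.00613 in edgeR). *Gadd45g* was called lower (log2 fold change -0.38, adjusted p = 0.0329 in edgeR). The same counts, 1 higher and 1 lower, were found among 8 Müller glial markers and 5 bipolar markers tested. Of 6 amacrine markers 1 was called lower, of 3 erythrocyte markers 2 were called lower, and of 8 microglial markers 0 were called by edgeR, with 1 at an unadjusted p under 0.05. Without control replicate 1, 4 microglial markers were called higher and 2 amacrine markers lower. Without control replicate 4 no bipolar marker was called lower. The part of these markers in the rise of the E2F targets was not tested.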

How the data were processed

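The data were one RNA-seq library from each of 8 retinal samples, 4 per group. The authors mapped filtered reads to GRCm38 with HISAT2 and deposited whole-number counts per gene from featureCounts, which are not normalized. The strand setting is not given in the sources used here. Total counts of 16227095 to 20281517 made 3 counts equal 0.148 to 0.185 CPM, and intervals cover the spread between samples. The labels do not say that the samples are separate animals, so p-values measure only the spread between these samples, which may be technical.

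Differential expression was computed with edgeR 4.0.16 under R 4.3.3 (filterByExpr, TMM, glmQLFit and glmQLFTest, condition only) on 17998 of 54532 genes with Benjamini-Hochberg adjustment. DESeq2 1.42.0, the package of the study's methods, and limma 3.58.1 (voom) were alternatives, with other scalings, filters, a replicate block, a stricter threshold and samples left out. The script was tested on simulated data. FPKM used the deposited gene lengths. Named genes were the 10 members, the 3 largest called changes of each pathway list (or its most abundant gene), any gene of a list of at most 10, and the genes most like each member by Pearson r of log2 CPM (prior count 2). Some genes that this rule covers are not reported here. Members and lists were chosen with earlier results of these data known. Promoters came from RefSeq (GRCm38.p6).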

Additional observations from a re-analysis of the deposited data

Results flagged for a closer look

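The log2 CPM of *E2f1* in control replicate 1 was 5.38, against 6.27 to 6.45 in the other 3 controls. This sample was flagged because its distance to the nearest control was 0.833 of the range of the group, above Dixon's 95% critical value for 4 samples. It was 1 flag among 20 groups (10 members in 2 groups), and chance flags about 1 in 20.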

How the results depend on the processing

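The log2 fold changes of the members were recomputed under 16 alternatives each, and 154 of 160 kept their sign. Without control replicate 1 the sign turned for *E2f2* (-0.052), *E2f7* (-0.075) and *E2f8* (-0.057), and without control replicates 1 and 4 together for *E2f5* (0.026), *E2f7* (-0.045) and *E2f8* (-0.073). With 1 sample left out at a time, the values ran from -0.052 to 0.27 for *E2f2*, from -0.075 to 0.41 for *E2f7*, from -0.057 to 0.36 for *E2f8* and from -0.35 to -0.20 for *Rb1*. These fits called 0 to 1 members lower, 2 to 19 S phase targets higher and 4 to 10 mitotic targets higher. The 15 S phase targets called higher became 6 without control replicates 1 and 4 and 2 at an adjusted p under 0.01. The other alternatives with all samples kept the counts of higher calls within 1.5 times, except that the replicate block called 10 mitotic targets in place of 6. Same-numbered samples had correlations of their deviations from the group means of -0.111, 0.215, -0.114 and 0.249. Those of differently numbered samples ran from -0.227 to 0.264. With 4 samples per group this check cannot settle whether the numbers pair the samples. With the replicate block 0 members and 16 S phase targets were called. DESeq2 called 1476 genes higher and 1019 lower over the whole table. The order of levels per length was the same on library totals and in TPM. The causes of these changes were not tested. The 95% intervals of the members are the limit at this number of samples, and the widest, of *E2f7*, ran from -0.40 to 0.76.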
